A study of Rattus norvegicus with 27 samples.

Results

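Transcripts of 9 genes for voltage-gated sodium channels and their intracellular partners were followed across 27 rats. They were 4 pore-forming alpha subunits (Scn1a, Scn2a, Scn3a and Scn8a), 2 auxiliary beta subunits (Scn2b and Scn3b) and 3 intracellular fibroblast growth factors (Fgf12, Fgf13 and Fgf14). The genes were taken by symbol from the 36865 rows of the count table, and Fgf14 was included because the study names it. All 9 were among the 11730 genes with a mean of at least 10 counts per library, so none was lost to a filter on low counts.

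Voltage-gated sodium channels open when a neuron is depolarized and carry the rising phase of the action potential. The alpha subunit forms the pore and the voltage sensors, beta subunits alter gating and anchor the channel, and intracellular FGFs, which are not secreted, bind the cytoplasmic tail of the alpha subunit and shift its inactivation. In cortical neurons these proteins gather at the axon initial segment, where action potentials start, on a scaffold of ankyrin G and beta IV spectrin.

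RNA sequencing was made from bulk medial prefrontal cortex (mPFC), the infralimbic, prelimbic and anterior cingulate areas together, with 1 library for each of 27 adult male Wistar rats. The rats had gone through repeated anxiety tests (a plus-shaped elevated maze, a light-dark box and an open arena). They were killed at rest weeks after the last test, and had been picked as every second rat in a ranking by a composite anxiety score. The labels put every rat in the same group, with the treatment given as learned helplessness, which the study's methods do not describe, and give no anxiety score, so no groups were compared and there was no untested control. The study asked which transcripts go with trait anxiety; the values below address only how the 9 genes vary and move together between rats.

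Library totals ran from 4907255 to 12771309 counts (median 8168801). The 16 libraries numbered up to 31 held 4907255 to 8568317 counts and the 11 numbered from 32 held 9404220 to 12771309, so correlations are given within these sets too. Counts were divided by DESeq2 size factors and are called normalized counts. All marker genes of 10 cell-type lists were detected, and the 5 neuron markers summed to 31762 to 42160 normalized counts per rat. The rat numbered 3 stood apart: it was the lowest library for 19.9% and the highest for 19.8% of the 11730 genes, against at most 7.02% and 9.3% in any other rat. Its 10 oligodendrocyte markers summed to 66330 normalized counts (19001 to 45501 in the others), and 5 of its 6 excitatory neuron markers were the lowest of all rats (summed 12156, against 14093 to 22916). Rat 19 had the second lowest excitatory sum, and rats 12 and 20 held 19987 and 16899 normalized counts of the ribosomal RNA gene Rn18s, against 853 to 5243 in the others. The effect of leaving these rats out is given with the results. In bulk tissue, fewer cells of a type and less RNA per cell cannot be told apart.

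Start sites from RefSeq (build GRCr8) were at hand for 7 of the 9 genes. The 250 bases upstream are shown for the 2 pairs around which the correlations below turn, Scn8a with Scn2b and Scn2a with Scn3a, written 5′ to 3′ in the direction of the gene, with GC boxes (GGGCGG on either strand, overlaps counted) in capitals. The stretch printed for Scn8a is chr7:133860977-133861226 on the plus strand, for Scn2b chr8:54322133-54322382 on the plus strand, for Scn2a chr3:70710706-70710955 on the plus strand and for Scn3a chr3:70666199-70666448 on the minus strand.
Scn8a: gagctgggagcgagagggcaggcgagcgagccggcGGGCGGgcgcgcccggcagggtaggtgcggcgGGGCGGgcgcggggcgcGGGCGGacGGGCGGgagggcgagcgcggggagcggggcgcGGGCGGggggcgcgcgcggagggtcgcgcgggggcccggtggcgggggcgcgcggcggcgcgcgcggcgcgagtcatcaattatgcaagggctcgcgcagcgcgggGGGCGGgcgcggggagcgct
Scn2b: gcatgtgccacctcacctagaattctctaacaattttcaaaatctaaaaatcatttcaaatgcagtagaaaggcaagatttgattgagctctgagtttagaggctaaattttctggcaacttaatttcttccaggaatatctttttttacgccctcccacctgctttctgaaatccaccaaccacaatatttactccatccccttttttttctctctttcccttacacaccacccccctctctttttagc
Scn2a: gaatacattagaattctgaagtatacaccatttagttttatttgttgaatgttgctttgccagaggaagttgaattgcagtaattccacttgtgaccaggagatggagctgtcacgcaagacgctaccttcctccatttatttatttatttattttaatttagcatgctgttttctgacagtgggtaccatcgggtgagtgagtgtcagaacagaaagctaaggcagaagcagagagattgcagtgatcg
Scn3a: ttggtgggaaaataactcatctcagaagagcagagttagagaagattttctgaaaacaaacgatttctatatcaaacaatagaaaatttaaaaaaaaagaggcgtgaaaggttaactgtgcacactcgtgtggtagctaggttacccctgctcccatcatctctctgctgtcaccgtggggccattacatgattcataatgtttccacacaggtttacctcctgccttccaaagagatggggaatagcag
The Scn8a stretch was 86% G and C, higher than in 99.9% of the 33469 RefSeq stretches of this length, and it held 6 GC boxes, a number reached by 0.825% of them. Scn2b (38.8% G and C), Scn2a (39.6%) and Scn3a (41.6%) held none, and at least 1 GC box was found in 30.5% of all stretches. None of the 4 held TATAAA (12.9% of all stretches) or CCAAT (34%), each searched on both strands. Scn8a and Scn2b thus differed in base composition over this window, while Scn2a and Scn3a were alike in it. On chromosome 3, Scn3a and Scn2a are each other's neighbors among protein-coding genes and Scn1a lies beside Scn9a, while Scn2b lies beside Scn4b on chromosome 8.

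Among the alpha subunits, Scn8a differed most between rats and Scn2a least. Levels are compared between rats only, not between genes, since transcript lengths were not used here. Scn8a encodes NaV1.6, the channel of the distal initial segment and of nodes of Ranvier. Its lowest, median and highest normalized counts were 179, 1008 and 1458, an 8.15-fold range, with an SD of 0.59 on the log2 scale. Rats 3 (179) and 19 (411) lay below the other 25, which ran from 656 to 1458. Without rat 3 the SD was 0.38. The SD of 0.59, with rat 3 included, exceeded that of 95.5% of the 11730 genes.

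Scn1a, the gene for NaV1.1, is known from fast-spiking inhibitory neurons and from epilepsy. It ran from 515 through a median of 816 to 1049 normalized counts (SD 0.22, log2), again with rat 3 at the bottom. Scn3a, the gene for NaV1.3, a channel known for high levels before birth, ran from 286 through 459 to 660 (SD 0.28), with rat 3 lowest and rat 12 highest. Scn2a, the gene for NaV1.2 of excitatory neurons, ran from 3518 through 4188 to 5159 (SD 0.15), and rat 3 (3875) and rat 19 (4287) lay within the range of the rest. Rat 3 was thus far below the others in Scn8a but not in Scn2a. Of the reads on the 4 alpha genes, Scn8a took a median of 15.7% per rat and at most 19.3%. In rat 19 it took 7.14% (95% Wilson interval 6.43 to 7.91) and in rat 3 3.69% (3.08 to 4.4). These are shares of reads and not of molecules, and the intervals cover counting error only.

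**Figure D1:**
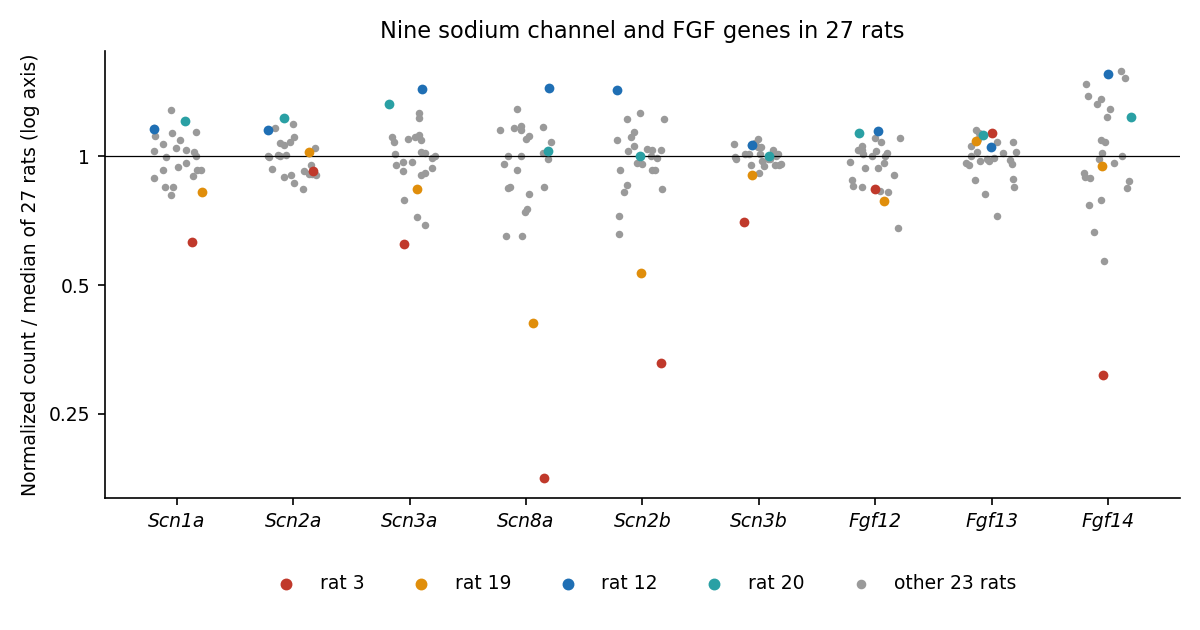
Each point is 1 rat: its normalized count divided by the median of the 27 rats (log axis) for each of the 9 genes, with rats 3, 19, 12 and 20 in color. Rat 3 is the lowest point in 6 genes, farthest in Scn8a, and lies above the median for Fgf13.

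Of the beta subunits, Scn2b varied more between rats than Scn3b. Scn2b, whose product is bound to the alpha subunit by a disulfide bond, had normalized counts of 112 at the lowest, 340 at the median and 487 at the highest (SD 0.42, log2). As for Scn8a, rats 3 (112) and 19 (182) lay below the other 25 (224 to 487), and rat 12 was highest. Scn3b, whose product is bound without that bond, had the smallest spread of the 9 genes, from 2092 through 2976 to 3267 (SD 0.12). Its lowest value came from rat 3, the next from rat 19 (2695), and without rat 3 the SD was 0.07.

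Of the intracellular FGFs, Fgf13, a partner that also binds microtubules, ran from 1395 through 1922 to 2221 normalized counts (SD 0.16, log2). It was the one gene of the 9 in which rat 3 (2187) was the second highest. Fgf12 ran from 287 through 421 to 482 (SD 0.18), lowest in rat 26 and highest in rat 12. Fgf14, whose loss causes ataxia, had the fewest reads, 6 to 57 per library. Its normalized counts ran from 9.18 (rat 3, 6 reads) through 29.8 to 47.2 (SD 0.49), and counting alone gave 35.9% of its variance, against 1.32% for Scn8a. Differences between rats in Fgf14 are accordingly the least well measured of the set.

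The spread of all 9 genes exceeded counting noise (chi-square dispersion test against Poisson, Benjamini-Hochberg adjusted p from 1.3e-05 for Fgf14 downward). The same test called 89.8% of the 11730 genes, so the count is near the background. The median log2 SD was 0.22 over the 9 genes and 0.19 over all 11730, and Scn8a, Fgf14 and Scn2b lay above 95.5%, 91.7% and 87.1% of genes. Rat 3 was the lowest rat in 6 of the 9 genes, beside 19.9% of all genes, and rat 12 the highest in 4, beside 9.3%. Rats 3 and 19, the lowest in Scn8a and Scn2b, also held the most of the small neuronal RNA Bc1 (62352 and 62228 normalized counts, against 8447 to 41520), and the part of this difference in the result was not tested. Bc1 and Rn18s were picked after their values were seen.

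None of the 9 genes differed between the depth sets (edgeR quasi-likelihood test, 0 called and 0 at an unadjusted p under 0.05), while 18% of the 11716 genes tested did. DESeq2 called 0 as well. Scn2b had 342 ± 91.7 normalized counts in the lower-numbered set (SD, n = 16) and 312 ± 46.8 in the higher (n = 11), a log2 difference of -0.13 ± 0.13 (SE, higher-numbered against lower, adjusted p = 0.536 by edgeR). With rats 3 and 19 left out, the Scn2b difference was -0.24 ± 0.08 (adjusted p = 0.0337 by edgeR) and it became the only 1 of the 9 to be called, beside 18.8% of all genes. Scn8a was 959 ± 328 and 945 ± 171 in these sets.

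Across the 27 rats, 12 of the 36 pairs of members were correlated, all with a positive sign. A pair was called when Spearman's rho passed a permutation test after adjustment over all genes, from each of its genes. In the same test, 11.2% of the correlations of the 9 genes with all other genes were called, and 7.09% as positive, from 0.895% for Scn3b to 11.9% for Scn3a. The median rho over the 36 pairs was 0.44, and the median over all genes was between -0.04 and 0.01 for each of the 9. Of the 12 pairs, 9 were also called without rat 3, 11 with values centered within the depth sets and 7 without rats 12 and 20, where the share over all genes was 8.99%, 13.5% and 4.49%. The 3 pairs lost without rat 3 were Scn1a and Scn3b, Scn3a and Scn8a, and Fgf12 and Fgf14 (adjusted p = 0.151, 0.0714 and 0.0632). Without rats 12 and 20 the same 3 were lost (adjusted p = 0.0844, 0.0866 and 0.14), with Scn2a and Fgf12 (0.116) and Scn3a and Fgf14 (0.0645).

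The alpha subunits Scn1a, Scn2a and Scn3a rose and fell together. Scn1a and Scn3a had the highest rho, 0.83 (p = 1e-05, the smallest that 100000 permutations can give, adjusted p = 9.1e-04; Pearson's r = 0.84, adjusted p = 8.1e-04). It was 0.87 in the 16 lower-numbered libraries (permutation p = 5.0e-05) and 0.86 in the 11 higher (permutation p = 0.00113). Dropping the 2 rats most distant from the Scn1a median gave an r of 0.76. Scn2a and Scn3a had a rho of 0.82 (adjusted p = 8.6e-04), 0.82 and 0.72 within the sets. Their r was 0.78 (adjusted p = 0.00143), and 0.73 once the 2 most distant rats in Scn2a were dropped. Scn1a and Scn2a had a rho of 0.71 (adjusted p = 0.00211), 0.73 and 0.63 within the sets. Their r of 0.66 (adjusted p = 0.00435) became 0.67 by the same omission in Scn1a and 0.56 by that in Scn2a. These 3 pairs were called under all the alternatives run. The coding sequences of these genes, and of Scn8a and Scn9a, resemble each other, and how reads matching more than 1 gene were counted is not given in the sources used here, so a part of shared reads in these correlations was not tested.

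Scn8a was called with Scn2b and Scn3a. With Scn2b its rho was 0.78 (adjusted p = 5.1e-04), and Pearson's r stood at 0.94 (adjusted p = 2.6e-04) or, once the 2 rats most distant from the Scn8a median were dropped, at 0.79. Within the lower-numbered libraries rho was 0.91 (permutation p = 1.0e-05), and within the higher-numbered it was 0.49 (permutation p = 0.13), short of the threshold with n = 11. Pearson's r was 0.98 in the lower-numbered and 0.67 in the higher-numbered libraries (permutation p = 0.0225 in the higher). With Scn3a the values were a rho of 0.55 (adjusted p = 0.0267) and an r of 0.64. Without rat 3 that rho was 0.50 (adjusted p = 0.0714) and the pair was no longer called. For Scn8a and Scn2a rho was 0.27 (adjusted p = 0.377), and for Scn2a and Scn2b it was 0.11 (adjusted p = 0.792). Whether these values differ from that of Scn8a with Scn2b was not tested.

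**Figure D2:**
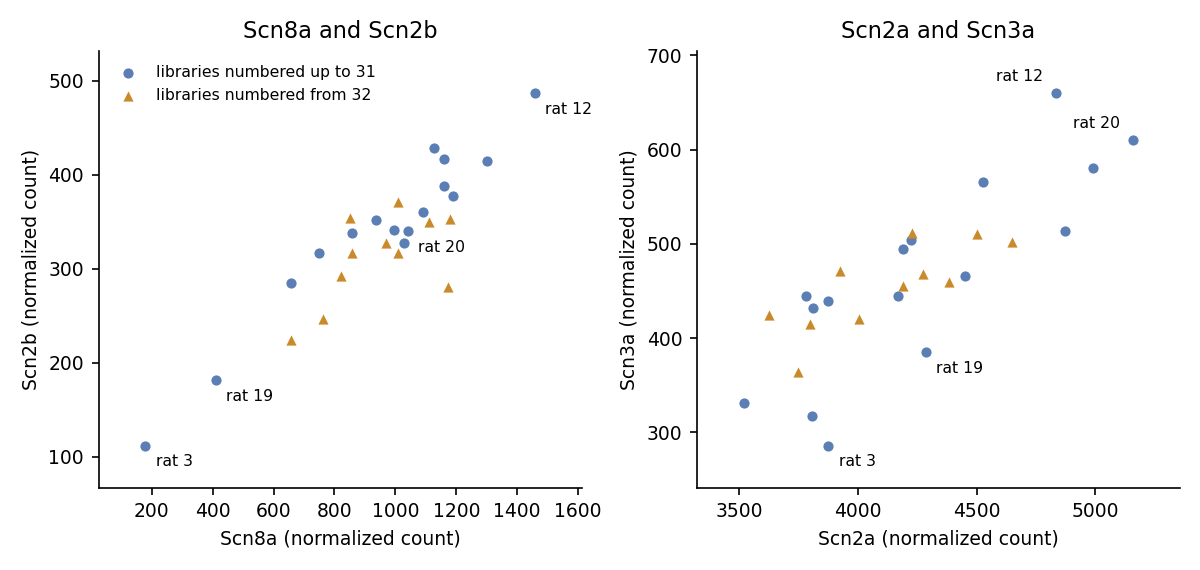
Normalized counts of Scn2b against Scn8a (left) and Scn3a against Scn2a (right), 1 point per rat, with circles for the 16 libraries numbered up to 31 and triangles for the 11 numbered from 32. Rats 3 and 19 lie at the low end of the left panel, rho 0.78, whereas in the right panel, rho 0.82, rat 19 is near the middle of the Scn2a axis.

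The 3 intracellular FGFs among the members correlated with Scn2a. With Scn2a, rho was 0.70 for Fgf13 (adjusted p = 0.00782), 0.69 for Fgf14 (adjusted p = 0.00613) and 0.61 for Fgf12 (adjusted p = 0.0146). The matching r values were 0.60, 0.60 and 0.61, with adjusted p of 0.0143, 0.0115 and 0.0126. Dropping the 2 rats most distant in Scn2a gave an r of 0.56 for Fgf13, 0.60 for Fgf14 and 0.53 for Fgf12. Fgf13 and Fgf14 gave similar rho in both depth sets, 0.69 and 0.70 for Fgf13 and 0.64 and 0.75 for Fgf14. For Fgf12 it was 0.79 in the lower-numbered libraries and 0.16 (permutation p = 0.633) in the higher.

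Scn3a paired with Fgf12 (rho 0.72, adjusted p = 0.00123, r 0.59) and with Fgf14 (rho 0.66, adjusted p = 0.0102, r 0.68). In the lower-numbered libraries these rho values were 0.85 and 0.78, and in the higher 0.14 and 0.32, where neither passed (permutation p = 0.693 and 0.34). Fgf12 and Fgf14 had a rho of 0.55 (adjusted p = 0.0441) that was 0.72 and 0.02 within the sets. Of the 12 called pairs, all 12 reached an unadjusted permutation p under 0.05 in the lower-numbered set and 6 in the higher. The difference between the sets was not tested, and the higher set holds fewer rats.

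Fgf13 was called with Scn2a alone. Its rho was -0.15 with Scn8a (adjusted p = 0.679), -0.19 with Scn2b (adjusted p = 0.593) and -0.04 with Scn3b (adjusted p = 0.935), the 3 negative pairs of the 36, none of which passed. The sign with Scn8a turned to 0.02 without rats 3 and 19, and that with Scn3b to 0.07 without rat 3. Scn3b was paired only with Scn1a, at a rho of 0.61 (adjusted p = 0.0445, r 0.75), and this pair was lost under more alternatives than any other. Its adjusted p was 0.151 without rat 3, 0.055 with TMM scaling and 0.0802 with values centered within the depth sets.

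**Figure D3:**
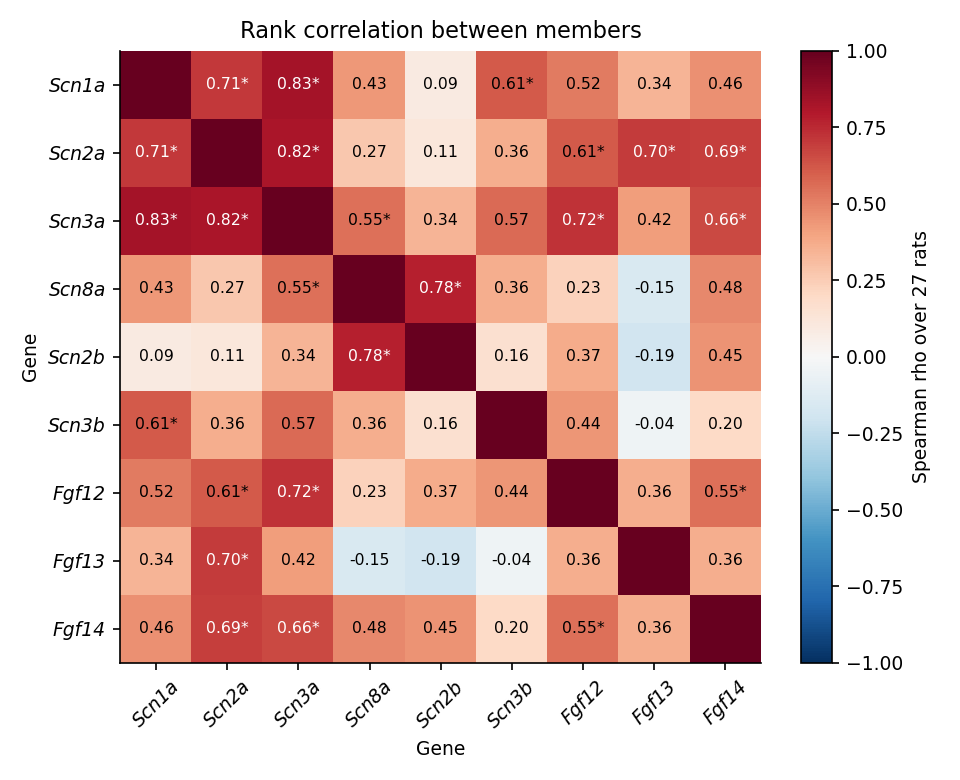
Spearman's rho between each 2 of the 9 genes over 27 rats, in color and in numbers, with an asterisk on the 12 called pairs. The block of Scn1a, Scn2a and Scn3a lies between 0.71 and 0.83, Scn8a and Scn2b reach 0.78, and the Fgf13 row holds the 3 negative values.

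Several members rose with the neuronal markers of the piece of cortex, and none of these calls was kept without rats 3 and 19. A score over 6 excitatory neuron markers (among them Slc17a7, Neurod6, Neurod2, Tbr1 and Camk2a) was fitted to each gene by edgeR. With it, 6 of the 9 rose (32.1% of 12108 genes were called in either direction and 15.7% as rising). Per SD of the score, Scn8a rose by 0.44 ± 0.07 on the log2 scale (SE, n = 27, adjusted p = 4.1e-05 by edgeR) and Scn2b by 0.31 ± 0.05 (adjusted p = 4.3e-05 by edgeR). Scn3a rose by 0.17 ± 0.04, Scn1a by 0.12 ± 0.04, and Scn3b and Fgf12 by 0.09 each. Fgf14 (0.22 ± 0.09, adjusted p = 0.0589 by edgeR), Scn2a (0.04 ± 0.03) and Fgf13 (-0.03 ± 0.03) did not pass. DESeq2's Wald test did call Fgf14, at 0.22 ± 0.09 (adjusted p = 0.0492). Adding the depth set to the fit brought Fgf14 in, at 0.28 ± 0.09 (adjusted p = 0.0148 by edgeR), whereas without rat 3 its slope was 0.10 ± 0.10 (adjusted p = 0.597 by edgeR) and without rats 3 and 19 it was 0.11 ± 0.13.

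Rats 3 and 19 had the lowest excitatory scores, -3.40 and -2.27 SD. Without rat 3, 3 of the 9 were called (12% of all genes): Scn8a at 0.30 ± 0.08 (adjusted p = 0.0157 by edgeR), Scn2b at 0.23 ± 0.06 (adjusted p = 0.0144 by edgeR) and Fgf12 at 0.12 ± 0.04 (adjusted p = 0.0499 by edgeR). Without both rats edgeR called 0 of the 9 (4.83% of all genes), 3 had an unadjusted p under 0.05, and Scn8a stood at 0.17 ± 0.09 and Scn2b at 0.15 ± 0.08. Scn3a was then at 0.17 ± 0.08 and Fgf12 at 0.12 ± 0.05, no smaller than with all 27 rats. Scn1a went from 0.12 to 0.07 ± 0.05 without rat 3 and 0.03 ± 0.06 without both, and Scn3b from 0.09 to 0.05 ± 0.02 and 0.03 ± 0.03. The rise of Scn8a and Scn2b with excitatory markers thus rested on these rats in its call, while its direction held.

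With a score over 7 interneuron markers (Gad1, Gad2, Slc32a1, Lhx6, Erbb4, Pvalb and Kcnc1), 5 of the 9 rose (22.6% of 12108 genes called, 11.1% as rising). Scn8a rose by 0.36 ± 0.08 per SD (adjusted p = 0.00306 by edgeR), Scn2b by 0.22 ± 0.07, Scn3a by 0.16 ± 0.04, Scn1a by 0.15 ± 0.03 (adjusted p = 0.00196 by edgeR) and Scn3b by 0.09 ± 0.02. Rat 3 was lowest in this score too, and without it edgeR called 0 of the 9 and 0 of 12034 genes, with 4 of the 9 at an unadjusted p under 0.05. Scn1a was then at 0.12 ± 0.04 (adjusted p = 0.147 by edgeR) and Scn8a at 0.22 ± 0.07 (adjusted p = 0.178 by edgeR). Scn2b was at 0.11 ± 0.07 without rat 3 and at 0.02 ± 0.07 without rats 3 and 19, where Scn8a was at 0.12 ± 0.07.

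The oligodendrocyte score, in which rat 3 was highest at 2.46 SD, called none of the 9 (1.65% of 12027 genes called by edgeR, 1 member at an unadjusted p under 0.05, and 0 by DESeq2). Scn3b had the smallest p, at -0.05 ± 0.02 per SD (adjusted p = 0.387 by edgeR), and Scn8a stood at -0.10 ± 0.10 with rat 3 and 0.03 ± 0.08 without it.

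**Figure D4:**
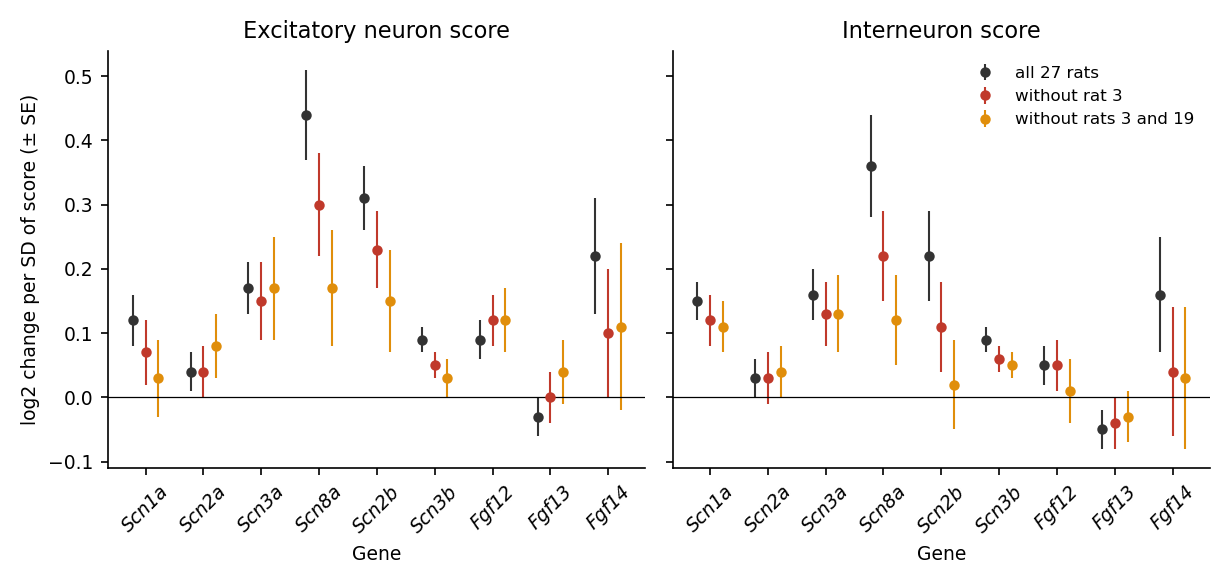
Fitted log2 change of each gene per SD of the excitatory neuron score (left) and the interneuron score (right), with SE bars, for all 27 rats (black), without rat 3 (red) and without rats 3 and 19 (orange). The Scn8a point falls from 0.44 to 0.17 in the left panel as the rats are left out, and Scn3a stays between 0.15 and 0.17.

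Regressing out the excitatory score left 11 pairs called, 9 of them among the 12 found without it, beside 10.4% of all genes. The 3 lost were Scn3a and Scn8a (rho 0.28), Fgf12 and Fgf14 (0.39) and Scn1a and Scn3b (0.58, adjusted p = 0.397). Fgf12 and Fgf13 (rho 0.66, adjusted p = 0.00897) and Scn3a and Fgf13 (rho 0.62, adjusted p = 0.0168) were called in turn. Fgf13 and Scn3a were also called without rat 3 alone, at a rho of 0.58 (adjusted p = 0.039).

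Other channel and initial segment genes were read from a list of 22, of which 16 had a mean of at least 10 counts. Scn7a, Scn10a and Scn11a were below that, Ank2 and Nalcn were listed at 0 in every library, and Nrcam was split over 2 rows with no reads. As Ank2, Nalcn and Nrcam are genes that cortical neurons are known to use, their zeros may come from the counting and are not read as a lack of expression. Of the 144 correlations of the 16 with the 9 members, 26 were called as positive and 2 as negative, beside the 11.2% of calls over all genes. The potassium channel gene Kcnq3, a carrier of the M current, had a rho of 0.88 with Scn3a, 0.85 with Scn1a and 0.72 with Scn2a (adjusted p = 3.1e-04, 9.1e-04 and 0.00147; r = 0.91, 0.87 and 0.73). Dropping the 2 rats most distant in each member gave an r of 0.88, 0.82 and 0.64. In the higher-numbered libraries rho was 0.93, 0.83 and 0.72. Kcnq3 was also called with Fgf14 (rho 0.58, adjusted p = 0.028) and Fgf12 (rho 0.52, adjusted p = 0.0425), at 0.35 and -0.15 in those libraries.

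Sptan1, alpha II spectrin of the membrane skeleton, had a rho of 0.84 with Scn8a and 0.79 with Scn2b (adjusted p = 3.4e-04 and 5.1e-04; r = 0.95 and 0.91), and 0.03 with Scn2a. Dropping the 2 most distant rats gave an r of 0.84 and 0.73, and within the higher-numbered libraries rho was 0.75 and 0.57. Whether the values with Scn8a and Scn2a differ was not tested.

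Cntn1, a cell adhesion protein that joins sodium channels, was called with 7 of the 9 members, from 0.61 with Scn1a and Scn2b to 0.82 with Scn3a. Within the higher-numbered libraries these 7 values ran from 0.24 with Scn8a to 0.68 with Scn2a. Scn9a, another alpha subunit and the neighbor of Scn1a on chromosome 3, had a rho of 0.72 with Scn3a, 0.71 with Scn1a and 0.70 with Scn2a, and -0.03 with Scn2b. In the higher-numbered libraries the first 3 were 0.82, 0.81 and 0.75. Scn9a was also called with Fgf12 (rho 0.54, adjusted p = 0.0342), at -0.09 in those libraries. The scaffold gene Ank3 (ankyrin G) was called with none, at a rho of 0.26 with Scn1a and 0.03 with Scn2a. Sptbn4, beta IV spectrin, gave the 2 negative calls, at -0.76 with Fgf13 (adjusted p = 0.0023, r = -0.71) and -0.58 with Scn2a (adjusted p = 0.0246, r = -0.47, whose own adjusted p was 0.0705). The Fgf13 value was -0.75 and -0.76 within the depth sets and -0.74 without rat 3.

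Fgf11, the remaining intracellular FGF, had a rho of 0.00 with Scn2a and was called with Scn8a (0.63, adjusted p = 0.00742, r = 0.48), with 0.74 in the lower-numbered and 0.25 in the higher-numbered libraries. Scn4b, the neighbor of Scn2b on chromosome 8, had a rho of -0.00 with it. Nedd4l, a ubiquitin ligase that acts on sodium channels, was called with Scn3b (0.69), Scn8a (0.56), Scn2b (0.55) and Scn3a (0.51), but in the higher-numbered libraries rho was 0.51, 0.13, 0.27 and 0.19. Rest, a repressor of neuronal genes including sodium channels, was called with none and had few reads (14.2 ± 6.37 normalized counts).

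**Figure D5:**
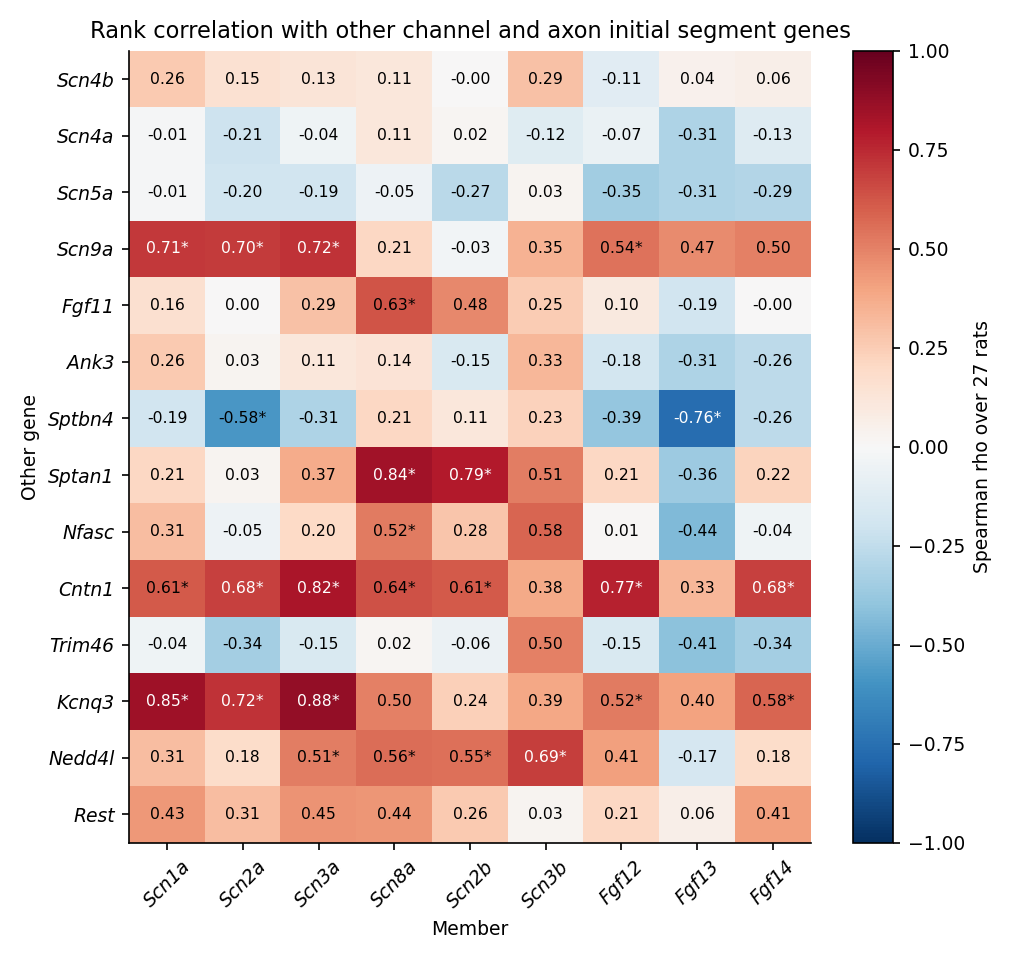
Spearman's rho over 27 rats of 14 of the 16 other channel and initial segment genes (rows) with the 9 members (columns), with an asterisk where the adjusted p was under 0.05. Kcnq3 and Scn9a are red under Scn1a, Scn2a and Scn3a, Sptan1 is red under Scn8a and Scn2b, and Sptbn4 is blue under Fgf13 at -0.76. Asterisks also mark Kcnq3 under Fgf12 and Fgf14, and Scn9a under Fgf12.

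For each member, the 3 genes with the most similar ranking of the rats were read out among genes with at least 50 normalized counts on average, as a description without a test. Scn8a was nearest to Arhgef12, a GTPase exchange factor, and Ssh2, a cofilin phosphatase (rho 0.94 each), and to Ypel2 (0.93). Scn2b was nearest to Rab11fip4 and to Add2, beta adducin of the membrane skeleton (0.92 each), and to Pip4k2b (0.91). Without rat 3 these 6 values were 0.94, 0.93, 0.92, 0.91, 0.91 and 0.90. Scn3a was nearest to the progesterone receptor gene Pgr (0.94), to Grm5, a metabotropic glutamate receptor (0.93), and to Camsap2, a microtubule minus-end protein (0.91).

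Scn1a was nearest to Jmjd1c, Usp34 and Rev3l (0.88 each) and Scn2a to the nuclear receptor corepressor Nrip1 (0.89), Usp32 and Osbpl8 (0.86 each). Among the genes nearest to Fgf12 were Lancl2 (0.90) and Gopc (0.88). Fgf14 was nearest to Lnpk (0.80), Fem1b and Fgd4 (0.79 each). Scn3b was nearest to Ube4b at 0.82, the potassium channel gene Kcnd3 at 0.77 and the kinesin gene Kif3c at 0.75. Fgf13 was nearest to the splicing regulator Mbnl2 (0.81), to Armt1 (0.79, and 0.94 without rat 3) and to Lamtor3 (0.78).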

How the data were processed

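One RNA-seq library was made from the mPFC of each of 27 rats. The authors deposited a table of raw counts per gene and library, keyed by NCBI gene ID. The submitters' processing notes name Trimmomatic, STAR and HTSeq. Versions, genome build, annotation and strand setting are not given in the sources used here. The labels name a TruSeq kit and the methods a NEBNext kit with single reads. The section plane differs between these sources as well.

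Counts were scaled by DESeq2 1.42.0 size factors, and log2(normalized count + 1) entered the correlations. Spearman's rho was tested two-sided with 100000 permutations, each member against the 11730 genes with a mean of at least 10 counts, with Benjamini-Hochberg adjustment over all of them and a threshold of 0.05. Depth sets and marker scores were tested with edgeR 4.0.16 (quasi-likelihood, TMM, filterByExpr, Benjamini-Hochberg adjustment over all genes tested) in R 4.3.3. A marker score is the mean of its genes' z-scored log2 values, itself z-scored over the rats. Spread beyond counting was tested by a chi-square dispersion test with 26 degrees of freedom. Permutation and dispersion tests were run in Python 3.11.15. The tests were tried on simulated data with 200 of 11730 genes changed. For a log2 change of 0.5, edgeR recovered 158 of them between the depth sets and 197 for the excitatory score.

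The genes and lists were chosen with earlier results of these data known. The genes named in the text were the 9 members, a list of 22 other channel and initial segment genes, the marker genes and, for each member, the 3 genes with the highest rho among those with at least 50 normalized counts. Each rat is 1 sample, so p-values of the correlations and edgeR fits measure the spread between rats. Those of the dispersion test are set against counting noise. Alternatives covered Pearson's r, TMM and total-count scaling, a pseudocount of 0.1, no filter, DESeq2's Wald test, centering within the depth sets, and leaving out rats. The exclusions of rat 3 and of rats 3 and 19, and the regression on the excitatory score, were added after the data were seen. A few genes of these lists are not reported here.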

Additional observations from a re-analysis of the deposited data

How the results depend on the processing

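All 9 genes varied beyond counting under each scaling and with rats left out. Of the 36 pairs, 21 were called with Pearson's r, 19 with the depth set and the oligodendrocyte score regressed out, and 7 without rats 12 and 20, against 12 as reported, beside 22.7%, 21.7%, 4.49% and 11.2% of the correlations with all genes. Without rat 3, 3 genes followed the excitatory neuron score and 0 the interneuron score. Without rats 3 and 19 these counts were 0 and 0, and 1 gene, Scn2b, differed between the depth sets. The other counts lay within 1.5 times those reported. Signs turned in log2 differences, slopes and rho values that had not passed their own test with all rats, and the cause was not tested. Pearson's r did pass for Scn1a and Scn2b (0.55, adjusted p = 0.0386 by permutation) and for Scn2b and Scn3b (0.70, adjusted p = 0.0159 by permutation), whose rho turned. Once the 2 rats most distant in Scn2b were dropped, these r values were 0.03 and 0.05. Between the depth sets, without rats 12 and 20, the log2 difference was 0.03 for Scn3a, 0.04 for Scn8a and 0.02 for Fgf12, and without rats 3 and 19 it was -0.02 for Scn1a. For the oligodendrocyte score without rat 3 the slopes were 0.05 for Scn1a, 0.01 for Scn3a, 0.03 for Scn8a and 0.01 for Fgf12, and without rats 3 and 19 they were 0.04 for Scn1a and 0.01 for Scn8a. For the excitatory score, Fgf13 stood at 0.04 without rats 3 and 19. Without rat 3, rho was -0.02 for Scn1a and Scn2b and 0.07 for Scn3b and Fgf13. Without rats 3 and 19 it was -0.13 for Scn1a and Scn2b, 0.02 for Scn8a and Fgf13, -0.06 for Scn2b and Scn3b, and 0.17 for Scn3b and Fgf13. With the excitatory score regressed out it was -0.03 for Scn2a and Scn8a, -0.11 for Scn8a and Fgf12, and 0.17 for Scn3b and Fgf13. Depth limits Fgf14 most, at 6 to 57 reads. No paired analysis was possible because the labels form 1 group.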
